A study of Mus musculus with 4 samples.

Results

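The genes that build the synaptonemal complex and carry out meiotic recombination were examined in mouse oocytes with and without γ-irradiation. The set held 10 of the 17374 genes listed in the deposited files, namely Sycp2, Sycp3, Hormad1, Hormad2, Sycp1, Syce2, Spo11, Dmc1, Msh4 and Msh5. The rule names them by gene symbol and uses no measured value, although the set was proposed with earlier results of these data known. RNA-seq libraries were made from germinal vesicle (GV) stage oocytes, which are still arrested in meiotic prophase, of F1 hybrid females (C57/Bl6/DBA2J) on postnatal day 16. The control group comprised 2 libraries of oocytes that were not irradiated. The γ-irradiation group comprised 2 libraries of oocytes exposed to 5 Gy from a caesium source and collected 24 h later. Oocytes of both groups were stripped of cumulus cells and of the zona pellucida and were held in medium with milrinone, a phosphodiesterase inhibitor that keeps them from resuming meiosis. Each library was a pool of oocytes, and the study's methods give 2 independent experiments in all. Differences between single oocytes were therefore not measured. The age and the milrinone were common to both groups, while the study's methods do not state how long the controls were cultured.

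During meiotic prophase each chromosome folds its chromatin into loops along a protein axis, and the axes of homologous chromosomes are then zipped together by a central region to form the synaptonemal complex. Programmed DNA double-strand breaks are made on the axes, repaired by strand invasion of the homolog, and in part matured into crossovers. In females this takes place in the fetal ovary, and the complex is taken apart before the long arrest at which GV oocytes are found. The oocytes analysed here had therefore passed the stage at which these proteins are known to do their work.

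Several meiotic genes are silenced in somatic cells by complexes that bind their promoters at an E2F6 core (GCGGGA or its reverse complement TCCCGC) or an E-box (CACGTG, which is its own reverse complement). The promoters of the 2 members with the highest levels and of Hormad1, whose window held both kinds of site, are shown as the 250 bases before the annotated start, with these letters in capitals. They were taken from RefSeq sequence of GRCm38.p6, where Syce2 lies at chr8:84871861-84872110, Sycp3 at chr10:88459337-88459586 and Hormad1 at chr3:95559427-95559676, all on the plus strand.
Syce2: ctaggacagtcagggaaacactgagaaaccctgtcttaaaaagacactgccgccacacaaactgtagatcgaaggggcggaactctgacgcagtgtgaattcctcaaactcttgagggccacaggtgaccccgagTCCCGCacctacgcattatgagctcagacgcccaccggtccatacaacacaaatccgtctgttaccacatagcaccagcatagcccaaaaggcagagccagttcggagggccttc
Sycp3: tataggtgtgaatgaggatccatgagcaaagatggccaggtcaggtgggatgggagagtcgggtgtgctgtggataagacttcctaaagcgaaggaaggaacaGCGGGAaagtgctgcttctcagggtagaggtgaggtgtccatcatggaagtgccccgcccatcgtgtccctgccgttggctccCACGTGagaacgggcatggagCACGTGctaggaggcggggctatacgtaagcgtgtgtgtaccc
Hormad1: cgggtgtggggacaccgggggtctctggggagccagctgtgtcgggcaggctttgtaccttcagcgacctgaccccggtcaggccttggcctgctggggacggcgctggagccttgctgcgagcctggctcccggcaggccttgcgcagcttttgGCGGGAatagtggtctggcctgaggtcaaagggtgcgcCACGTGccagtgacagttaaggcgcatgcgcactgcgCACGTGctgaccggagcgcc
The table held 11 such windows for 9 of the 10 genes and none for Spo11. Of these 9 genes, 5 had an E2F6 core and 4 had an E-box in at least 1 window. Of the 13831 genes in the files that had a window, 28.7% held an E2F6 core and 8.72% an E-box in at least 1 window, while the shares of all 32851 windows of the table were 16.9% and 6.02%. CpG dinucleotides numbered 4 to 24 in the windows of the members, with a median of 12, which was also the median over the 17310 windows of genes in the files. In the Syce2 window shown, the E2F6 core began 115 bases before the start. A further window of Syce2, before an alternative start within the gene (chr8:84872008-84872257), is not printed and held an E-box 88 bases and an E2F6 core 34 bases before that start. In the Sycp3 window the core lay 147 bases before the start, with E-boxes at 64 and 43 bases. Letters found in a window do not show that a factor was bound there.

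The libraries held 33349466 to 37232818 estimated counts each. All 15 oocyte markers examined exceeded 1 TPM, a unit of level corrected for transcript length and library size, in every library, led by Dppa3, Zp3 and Gdf9, and their summed level was 48914 to 55045 TPM. Of 15 granulosa and cumulus cell markers 11 were listed, with summed levels of 17.8 and 20.2 TPM in control and 17.7 and 24.5 TPM in irradiated libraries, led by Cyp19a1, Nr5a2 and Fshr. Theca and stroma markers (5 of 8 listed, led by Dcn, Star and Pdgfra) summed to 0.42 to 0.64 TPM, and blood and endothelial markers (3 of 8 listed: Pecam1, Cd68 and Kdr) to 5.56 to 9.37 TPM, the highest value of each lying in irradiated library 2. Irradiated library 2 stood apart from the rest. Its log2 counts correlated with those of the other libraries at 0.981 to 0.984 over 12569 genes, against 0.992 to 0.993 among the other 3, and 9924 genes exceeded 1 TPM in it against 9076 to 9221. Where a value rests largely on this library, the value without it is given beside it. In pooled oocytes, fewer transcripts per oocyte and fewer oocytes that carry a transcript cannot be told apart.

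The 10 transcripts covered a wide range of levels, and Syce2 was far above the others. Mean levels over the 4 libraries were 626 TPM for Syce2, 29.4 TPM for Sycp3, 5.82 TPM for Sycp2, 5.54 TPM for Msh4, 3.63 TPM for Sycp1, 2.27 TPM for Hormad2, 1.28 TPM for Dmc1, 0.95 TPM for Hormad1, 0.278 TPM for Msh5 and 0.0225 TPM for Spo11. Syce2 ranked 247 and Sycp3 2562 among the 17374 listed genes, whereas Msh5 ranked 11763 and Spo11 15247. Neighbours in this order were separate in all libraries except Sycp2 and Msh4, and Dmc1 and Hormad1, whose values overlapped. Syce2 alone made up 92.4% and 92.0% of the summed TPM of the 10 genes in the controls, and 92.3% and 93.7% after irradiation. Here and below, paired values stand for library 1 and library 2 of a group. The sum of the other 9 genes was 47.3 and 50.5 TPM in control and 46.4 and 52.7 TPM in irradiated oocytes.

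**Figure D1:**
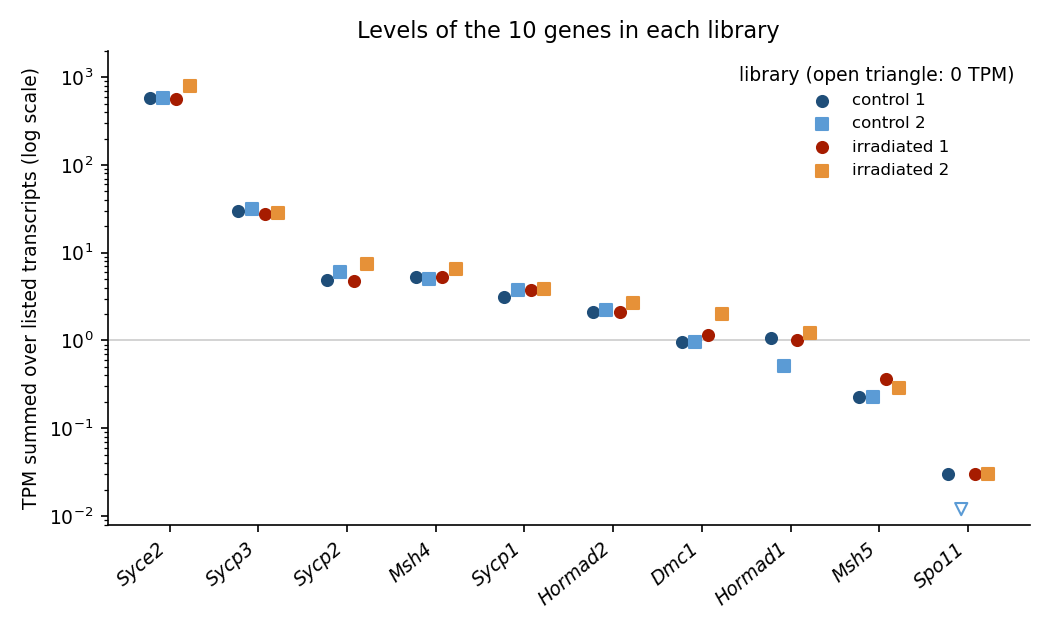
Level of each of the 10 genes in each library, in TPM summed over the listed transcripts of the gene, on a log scale. Points are single libraries, an open triangle stands for 0 TPM, and the line marks 1 TPM. Syce2 lay between 557 and 790 TPM, and Spo11 at 0.03 TPM or less.

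Proteins that work side by side had transcripts at very different levels. SYCE2 and SYCP1 both belong to the central region, and the level of Syce2 was 186 and 155 times that of Sycp1 in control and 148 and 202 times in irradiated oocytes. SYCP3 and SYCP2 form a complex on the axis, and the ratio of Sycp3 to Sycp2 in TPM was 6.05 and 5.22 in control and 5.82 and 3.79 in irradiated oocytes. MSH4 and MSH5 act as a heterodimer, and the ratio of Msh4 to Msh5 was 23.1 and 21.7 in control and 14.9 and 22.5 in irradiated oocytes. Hormad1 lay below Hormad2 in every library, at 0.514 and 0.232 of its level in control and 0.476 and 0.455 in irradiated oocytes.

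To determine whether irradiation altered these transcripts, gene totals were compared between irradiated and control oocytes with the quasi-likelihood test of edgeR over all genes. Of the 9 members with enough counts to be tested, 0 were called (log2 fold change beyond 2 in either direction with an adjusted p below 0.05), where the background was 1 of 12569 genes (0.00796%). At an unadjusted p under 0.05, 0 of the 9 members passed, against 744 of all genes (5.92%, of which 4.63% were higher and 1.29% lower after irradiation). The DESeq2 alternative gave an adjusted p under 0.05 to 6 genes (0.0477%), and 0 of them were members. Fold changes were above 0 for 4 of the 9 members and for 51.4% of all genes, and below 0 for 5 members, with a median log2 of -0.0282 and a range of -0.33 to 0.50, and the median over all genes tested was 0.0102. Normalized counts of both irradiated libraries lay above both controls for 1 member, below them for 2 and overlapped for 6, whereas of all genes 22.1% lay above, 19.9% below and 41.9% in all did not overlap. With 2 libraries a group the intervals were wide, and a change of a size within them remains possible. A log2 fold change smaller than 2 in size could not be called.

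**Figure D2:**
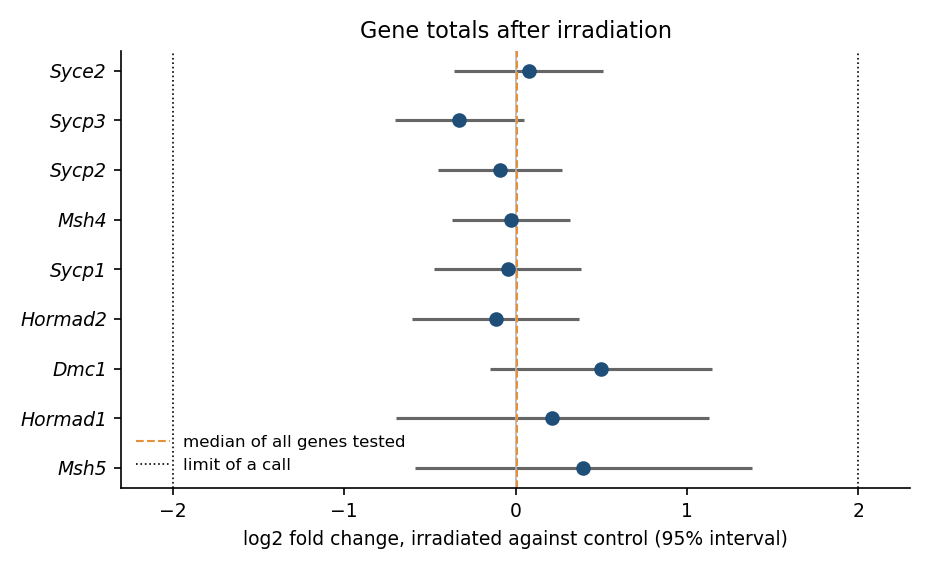
Log2 fold change of the gene total, irradiated against control (2 libraries each), for the 9 members tested, with 95% intervals from the edgeR fit. The dashed line is the median of all genes tested and the dotted lines are the limits of a call; every interval includes 0, and Sycp3 at -0.33 and Dmc1 at 0.50 are the ends of the range.

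The axis was represented by Sycp2 and Sycp3, which coat the chromosome axis, and by Hormad1 and Hormad2, HORMA domain proteins that bind axes not yet synapsed. Sycp3 (chr10:88459587-88473236, plus strand) had 774.8 and 789.0 normalized counts in control and 701.9 and 545.1 in irradiated oocytes. Both irradiated libraries lay below both controls. The log2 fold change was -0.33 (standard error 0.159, 95% interval -0.70 to 0.0483, adjusted p = 0.708). Without irradiated library 2 it was -0.16 (adjusted p = 0.685), and without irradiated library 1 it was -0.53 with an adjusted p of 2.35e-05, a fit that takes the spread from the controls alone and gave an adjusted p under 0.05 to 34.3% of all genes tested. In TPM the values were 29.6 and 31.8 in control and 27.8 and 28.5 in irradiated libraries. Sycp3 overlaps Chpt1, which lies on the opposite strand and shares 660 exonic bases with it. Strandedness of the counting is not given in the sources used here, so reads of the shared bases cannot be told apart, although Chpt1 itself held 52 counts or fewer.

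Sycp2 (chr2:178345295-178407776, minus strand) had 758.4 and 887.6 normalized counts in control and 706.1 and 838.7 in irradiated oocytes. The groups overlapped, with a log2 fold change of -0.0905 (standard error 0.153, 95% interval -0.45 to 0.27, adjusted p = 0.852). Most of its reads were assigned to NM_177191.3, which held 81.5% of the gene in control library 1 (95% Wilson interval 78.6% to 84.1%), 69.7% in control library 2 (66.5% to 72.7%), 74.1% in irradiated library 1 (70.6% to 77.3%) and 76.7% in irradiated library 2 (74.0% to 79.3%). The controls spanned a wider range of shares than the irradiated libraries. Such intervals cover counting error only, and not the error of sharing reads among transcripts.

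Hormad2 (chr11:4345801-4441198, minus strand) had 93.3 and 87.8 normalized counts in control and 86.1 and 80.9 in irradiated oocytes. Both irradiated libraries lay below both controls by a small margin, and the log2 fold change was -0.12 (standard error 0.205, 95% interval -0.60 to 0.37, adjusted p = 0.856). Hormad1 (chr3:95559677-95587863, plus strand) had 43.0 and 20.6 normalized counts in control and 37.2 and 37.0 in irradiated oocytes. Control library 2 was the low value, and both irradiated libraries lay between the controls. The log2 fold change of 0.21 (95% interval -0.70 to 1.13, adjusted p = 0.860) became 0.84 without control library 1 and -0.22 without control library 2.

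The central region was represented by Sycp1, the transverse filament that spans the gap between axes, and Syce2, a central element protein that extends synapsis along the chromosome. Sycp1 (chr3:102818499-102936100, minus strand) had 283.9 and 320.8 normalized counts in control and 328.6 and 257.5 in irradiated oocytes. The 2 irradiated libraries lay on either side of the controls, and the log2 fold change was -0.0471 (standard error 0.181, 95% interval -0.47 to 0.38, adjusted p = 0.935). Without irradiated library 2 it was 0.12. Sycp1 had 1 listed transcript, NM_011516.2, as did Sycp3 with NM_011517.2.

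Syce2 (chr8:84872111-84887446, plus strand) had 13200 and 12610 normalized counts in control and 12730 and 14490 in irradiated oocytes, or 12900 ± 414.9 and 13610 ± 1242 (mean ± SD, n = 2 libraries each). The groups overlapped, and the log2 fold change of the total was 0.0771 (standard error 0.184, 95% interval -0.36 to 0.51, adjusted p = 0.891). Without irradiated library 2 it was -0.0184. On the TPM scale, which does not correct for the composition of a library, Syce2 stood at 577 and 579 TPM in control and at 557 and 790 TPM in irradiated oocytes, so irradiated library 2 was the one that differed. Syce2 overlaps Gcdh on the opposite strand, but they share 0 exonic bases.

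The estimates for the transcripts of Syce2 varied more between libraries than the total did, most in irradiated library 2. NM_027954.3 had 399 and 393 TPM in control and 334 and 343 TPM in irradiated oocytes. NM_001168244.1 had 166 and 171 TPM in control and 212 and 429 TPM in irradiated oocytes. The first was lower and the second higher in both irradiated libraries than in both controls, and in irradiated library 2 their order was turned. The ratio of NM_001168244.1 to NM_027954.3 in TPM was 0.416 and 0.436 in control, 0.636 in irradiated library 1 and 1.25 in irradiated library 2. NM_001168246.1 held the smallest share, with 11.3 to 17.4 TPM.

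As a share of the estimated counts of the gene, NM_001168244.1 held 36.8% in control library 1 (95% Wilson interval 36.0% to 37.6%), 37.6% in control library 2 (36.8% to 38.5%), 46.9% in irradiated library 1 (46.0% to 47.8%) and 63.0% in irradiated library 2 (62.3% to 63.8%). The controls agreed within their intervals, and both irradiated libraries lay outside them and outside each other's. These intervals again cover counting error only. They leave out the error of sharing reads among transcripts and the spread between libraries. When all 26645 transcripts were tested, 0 were called (0%), 1306 had an unadjusted p under 0.05 (4.9%), and DESeq2 called 233 of 24062 (0.968%), none of them a transcript of the 10 genes. The log2 fold change was 0.67 for NM_001168244.1 (standard error 0.257, 95% interval -0.0585 to 1.41, unadjusted p = 0.0626, adjusted p = 1.0) and -0.41 for NM_027954.3 (standard error 0.164, 95% interval -0.88 to 0.0530, unadjusted p = 0.0689, adjusted p = 1.0). Without irradiated library 2 these were 0.32 and -0.26, and without irradiated library 1 they were 0.95 and -0.60. A test of isoform usage, added after seeing the data, gave Syce2 an unadjusted p of 0.10 and an adjusted p of 1.0, where 16 of 6323 genes (0.253%) passed an adjusted p under 0.05 and 6.12% an unadjusted one. The difference in transcript shares thus did not pass the limits of these tests. The shares of the 2 groups did not overlap, but how often this holds among all transcripts was not computed. With 2 libraries a group it is common, as 41.9% of all gene totals did not overlap. In the deposited values NM_001168244.1 had an effective length 1.43 to 1.44 times that of NM_027954.3, so the total of Syce2 in TPM depends on how its reads were shared, while the total in counts does not.

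**Figure D3:**
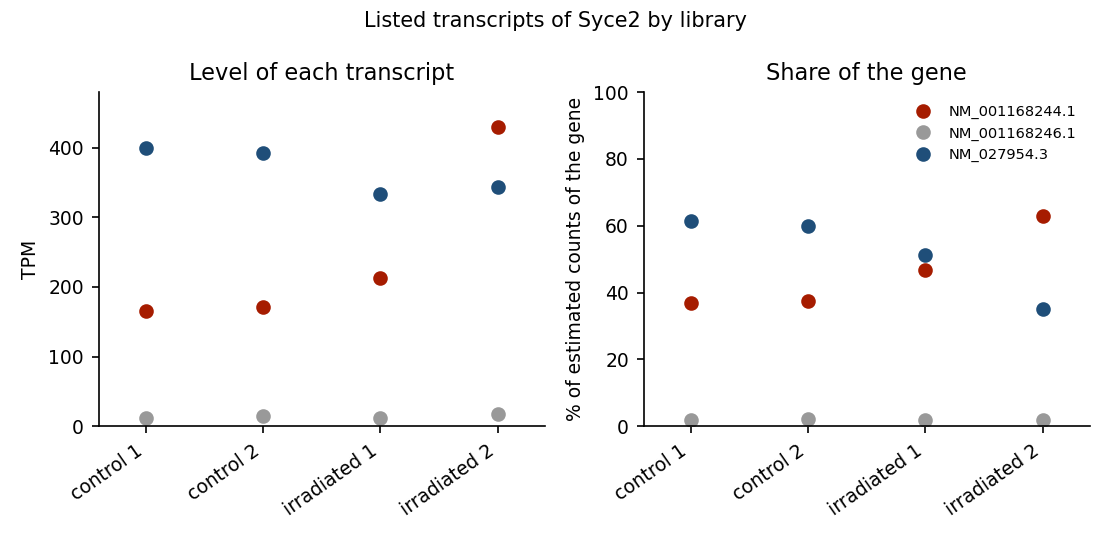
Level in TPM (left) and share of the estimated counts of the gene in percent (right) of the 3 listed transcripts of Syce2 in each library, 1 point per transcript. NM_001168244.1 lies above NM_027954.3 in irradiated library 2, at 429 against 343 TPM, and below it elsewhere.

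Break formation was represented by Spo11, the topoisomerase-like enzyme that cuts DNA in meiosis, and strand exchange by Dmc1, the meiosis-specific recombinase that pairs broken ends with the homolog. Spo11 (chr2:172977379-172993576, plus strand) had 1 count in control library 1, 0 in control library 2 and 1 in each irradiated library, and was too low to be tested. The 0 in control library 2 allows up to 3 counts, or 0.0900 CPM (counts scaled to the library total). Dmc1 (chr15:79561497-79605159, minus strand) had 39.97 and 48.8 normalized counts in control and 53.2 and 71.5 in irradiated oocytes. Both irradiated libraries lay above both controls, and this was the single member with that order. The log2 fold change was 0.50 (standard error 0.273, 95% interval -0.15 to 1.15, unadjusted p = 0.112, adjusted p = 0.708). Leaving out irradiated library 2 gave 0.26, and leaving out irradiated library 1 gave 0.68.

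The leading transcript of Dmc1, NM_010059.3, had 29 and 43 counts in the controls and 29 and 55 after irradiation, and these overlapped, with a log2 fold change of 0.0556 (95% interval -1.54 to 1.65, adjusted p = 1.0). The predicted transcript XM_006520407.3 had 0 counts in both controls and 10 and 14 in the irradiated libraries. With the controls set at a floor of 3 counts per library, the irradiated estimates were 3.97 times as high after scaling to library totals. This ratio leaves out the error of the irradiated estimates, and the transcript was too low to be tested. Of the 38 transcripts listed for the 10 genes, 1 had more than 3 counts in both libraries of a group and at most 3 in both of the other, against 1744 of all 45505 listed transcripts (3.83%, and 2.2% in the direction of XM_006520407.3), so the members do not stand above the background.

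Crossover formation was represented by Msh4 and Msh5, whose products form the MutSγ clamp that stabilises recombination intermediates. Msh4 (chr3:153857141-153906138, minus strand) had 469.4 and 412.9 normalized counts in control and 449.8 and 415.9 in irradiated oocytes. The irradiated libraries lay between the controls, and the log2 fold change was -0.0282 (standard error 0.145, 95% interval -0.37 to 0.32, adjusted p = 0.951). Its transcript NM_001282054.1 held 35 counts in control library 2 and 50 in irradiated library 1 but 0 in control library 1 and irradiated library 2, so both groups were split. Msh5 (chr17:35028605-35046997, minus strand) had 13.3 and 15.2 normalized counts in control and 23.4 and 14.6 in irradiated oocytes. Irradiated library 1 was the high value, and the log2 fold change of 0.40 (standard error 0.415, 95% interval -0.59 to 1.38, adjusted p = 0.772) was 0.0288 without it.

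The transcripts of the weakly transcribed members could not be resolved well. Of the 38 transcripts listed, 14 had more than 3 counts in all 4 libraries, 11 in 2 or 3 libraries, 10 in 1 library and 3 in none. Of the 5 transcripts of Hormad1 only NM_001289532.1 exceeded 3 counts in all 4 libraries, with 33 and 5 counts in the controls and 17 and 8 after irradiation, and of the 6 of Msh5 none did. Gene totals were therefore used wherever a gene was compared between groups.

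Other genes of meiotic prophase were compared in the same fit. Of 54 such genes 52 were listed and 48 tested, of which 0 were called in either direction, 24 had a log2 fold change above 0 and 24 below, with a median of -0.00571. Spo16 and Rec8 were not analysed here. At an unadjusted p under 0.05 there were 2, against 5.92% of all genes. Mus81, a nuclease that resolves crossover intermediates, had 1396 and 1446 normalized counts in control and 1649 and 2006 in irradiated oocytes (log2 fold change 0.36, or 0.22 without irradiated library 2, unadjusted p = 0.0445, adjusted p = 0.708). Meiosin, which acts with Stra8 at meiotic entry, had 16.4 and 37.9 normalized counts in control and 12.8 and 10.3 in irradiated oocytes (log2 fold change -1.23, or -0.51 without control library 2, unadjusted p = 0.0448, adjusted p = 0.708). Neither passed the adjusted threshold.

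The levels of these other genes were again uneven. Among the remaining synaptonemal complex genes, of which 5 of 6 were tested, Tex12, the central element partner of Syce2, was highest at 40.7 to 48.6 TPM, followed by Fkbp6 at 20.1 to 29.2 TPM. Syce2 thus exceeded its partner by far in every library. Tex12 had 537.1 and 561.4 normalized counts in control and 477.5 and 362.5 in irradiated oocytes, with a log2 fold change of -0.39 (95% interval -0.79 to 0.0121, unadjusted p = 0.0555, adjusted p = 0.708). Like Sycp3, it was in normalized counts lower in both irradiated libraries and lowest in irradiated library 2, without which the log2 fold change was -0.20. In TPM the irradiated libraries were alike, at 40.7 and 40.7 for Tex12 against 44.7 and 48.6 in control, and at 27.8 and 28.5 for Sycp3.

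Strand exchange genes outside the set were led by Sfr1, at 1868 to 1964 TPM, and by Swi5, at 146 and 139 TPM in control and 134 and 321 TPM in irradiated oocytes, whose products form a complex that assists strand exchange. The log2 fold change of Swi5 was 0.40, and -0.11 without irradiated library 2. Of the 11 strand exchange genes tested, 6 lay above 0 and 5 below.

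Of the other lists, that of break formation (7 tested) was led by Rec114, a break-promoting axis protein, at 17.1 to 22.1 TPM. Zcwpw1, a histone reader that was placed in this list, followed at 8.88 to 13.6 TPM. Crossover genes (11 tested) were led by Mus81, meiotic cohesin genes (3 tested) by Smc1b and Rad21l, and genes that attach telomeres to the nuclear envelope (7 tested) by Terb1 and Kash5. The members of these 4 lists lay on both sides of 0. Meiotic entry genes differed in level, with 243 to 373 TPM for Dazl, an RNA-binding protein that oocytes keep, about 2 TPM for Ythdc2 and 0 to 0.03 TPM for Stra8. Irradiated library 2 had the lowest level of Dazl, whose log2 fold change was -0.50, and -0.14 without that library. The 4 entry genes tested had a log2 fold change of -1.23 to -0.24 in normalized counts, and 0 of them passed the adjusted threshold. In normalized counts both irradiated libraries lay below both controls for 3 of the 4, against 19.9% of all genes. On the TPM scale the mean of Meiosin was 0.47 in control and 0.22 in irradiated oocytes. The means were 358 and 287 TPM for Dazl, and 2.215 and 2.045 TPM for Ythdc2. Meioc, the weakest of the 4, had 0.11 and 0.16 TPM in control and 0.14 and 0.13 TPM in irradiated oocytes, with no difference in mean.

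**Figure D4:**
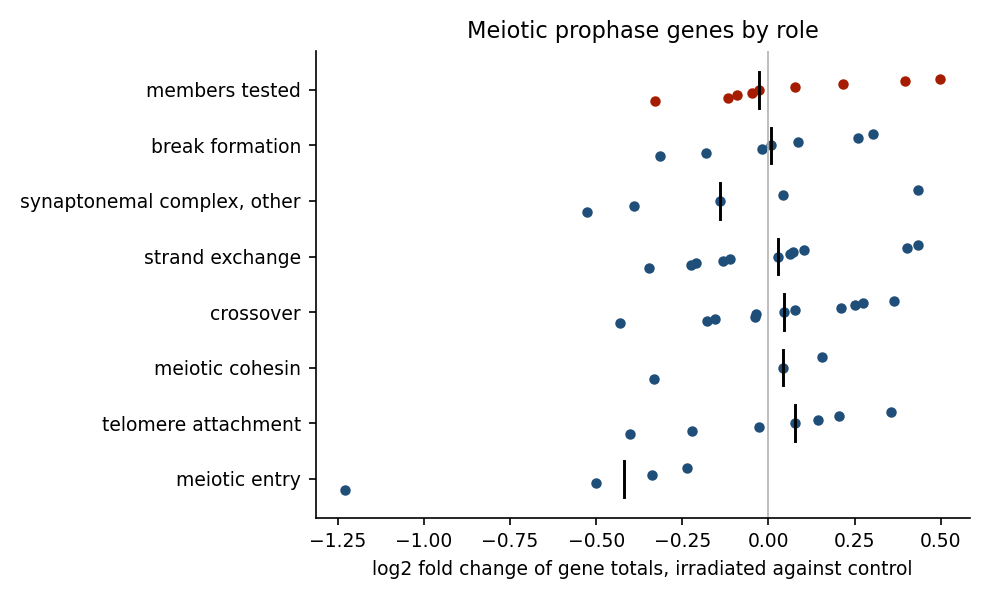
Log2 fold change of the gene total, irradiated against control (2 libraries each), for the members tested and for 7 lists of other meiotic prophase genes. Each point is a gene and the vertical bar is the median of the list; the members run from -0.33 to 0.50, and the lowest point is Meiosin at -1.23.

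The response of p53 targets, which radiation is known to induce, was read in the same libraries. Of 13 listed targets 10 were tested and 0 were called, against 1 of 12569 genes (0.00796%). A log2 fold change smaller than 2 in size could not be called. Fold changes lay above 0 for 6 and below 0 for 4, with a median log2 of 0.26 against 0.0102 for all genes. In normalized counts both irradiated libraries lay above both controls for 4 and below them for 1. Of all genes, 22.1% lay above and 19.9% below. Mdm2, the ubiquitin ligase that limits p53, had 8652 and 8021 normalized counts in control and 10680 and 10010 in irradiated oocytes (log2 fold change 0.31, 95% interval -0.0860 to 0.71, adjusted p = 0.708). Cdkn1a, the cell cycle inhibitor p21, had 21.5 and 20.6 normalized counts in control and 17.02 and 23.2 in irradiated oocytes (log2 fold change -0.0525, adjusted p = 0.963). Ccng1, named after its values were seen, had the smallest unadjusted p of the list (0.0166, adjusted p = 0.708), with 62.5 and 68.3 normalized counts in control and 91.5 and 158 in irradiated oocytes. Its log2 fold change was 0.94, and 0.48 without irradiated library 2.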

How the data were processed

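Libraries of mouse GV oocytes (2 control, 2 irradiated) were prepared from oligo(dT)-selected RNA and sequenced as paired-end 100 bp reads. The authors aligned trimmed reads to GRCm38 with Bowtie2, and the submitters' processing notes also name HISAT2, RSEM and mm10. The authors deposited an estimated count for each of 45505 RefSeq transcripts, not scaled for depth, and TPM values, which are. The annotation release and any filter are not given in the sources used here. Reads had been shared among the transcripts of a gene by an estimate, so transcript counts carry that error. Gene totals do not depend on sharing within a gene, but can carry that between genes. Totals of the 10 members lay within 0.01 of whole numbers in every library, and 75.1% of all genes within 0.02. A further 10 columns, 4 of FPKM and 6 of averages, were not used. Groups were taken from the sample labels.

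Estimated counts were summed per gene and rounded. Symbols and positions came from RefSeq GRCm38.p6 (17323 of 17374 gene IDs matched). After filterByExpr (minimum count 10) and TMM scaling, gene totals and transcripts were each tested with glmQLFit and glmQLFTest of edgeR 4.0.16 (R 4.3.3) without a block, and p-values were adjusted by the Benjamini-Hochberg method over every feature tested. TMM factors were 0.923 and 0.975 for the controls and 0.937 and 1.19 for the irradiated libraries. Alternatives were DESeq2 1.42.0, RLE factors, library size alone, no filter, a replicate block, limma 3.58.1 on log2(TPM + 1) and log2(TPM + 0.1), and leaving out each library. Isoform usage was tested with diffSpliceDGE and Simes' method. On simulated data for 12430 genes, 100% of 200 genes changed by 3 on the log2 scale were recovered, with 0 false calls. The changed genes were drawn from those with higher counts. All simulated libraries shared a common profile apart from these changes, so the departure of irradiated library 2 from the rest was not simulated. Smaller changes, and changes in genes with counts as low as those of Hormad1 and Msh5, were not simulated, so their recovery is not known. P-values of edgeR set the difference between groups against the spread between 2 libraries a group, moderated over all features tested. Levels and shares are descriptions. Python 3.11.15 with matplotlib 3.10.9 drew the figures.

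The members and gene lists were chosen with earlier results of these data known. Named genes were all members; of each prophase list the 2 highest by TPM and any with an unadjusted p under 0.05; of each marker list the 3 highest; and Mdm2 and Cdkn1a. Some genes that this rule names are not reported here, and Ccng1, Stra8 and Meioc, which it does not name, were added after their values were seen. Shares of promoters per gene, the count of transcripts found in a single group and values of other genes without each library were also added then.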

Additional observations from a re-analysis of the deposited data

How the results depend on the processing

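The count of genes called was 1 in the main analysis and 1 with RLE factors or without the limit on the fold change. It was 5 with DESeq2, 3 without a filter, 7 with a replicate block, and 0 with library size alone (586 at an unadjusted p under 0.05) and with limma on log2(TPM + 1), on log2(TPM + 0.1) and on log2(TPM + 1) without a filter (227, 250 and 581). Leaving out 1 library gave 16 to 84 (21 without control library 1, 20 without control library 2, 84 without irradiated library 1, 16 without irradiated library 2), the lone library of a group being assumed to vary like the others. The count of transcripts called was 0 except with DESeq2 (233).

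Library size alone moved the median log2 fold change of all genes to 0.17, log2(TPM + 1) to 0.18 and log2(TPM + 0.1) to 0.21, from 0.0102. The median over the members was -0.0282 in the main analysis, 0.18 on log2(TPM + 0.1) and -0.0407 to 0.15 under the other scalings. With this shift Sycp2, Hormad2, Sycp1 and Msh4, which lay just below 0, turned positive: with library size alone to 0.0810, 0.0408, 0.0934 and 0.13, on log2(TPM + 1) with or without a filter to 0.12, 0.0969, 0.13 and 0.17, and on log2(TPM + 0.1) to 0.13, 0.13, 0.17 and 0.20. These values lay below the shifted median of all genes, except on log2(TPM + 1) without a filter, where that median was 0.0793. Sycp3 stayed below 0 but came closer to it, at -0.19 with library size alone and -0.12 on log2(TPM + 1). Leaving out 1 library gave -0.22 to 0.0220 for Sycp2, -0.53 to -0.16 for Sycp3, -0.22 to 0.84 for Hormad1, -0.17 to -0.0716 for Hormad2, -0.24 to 0.12 for Sycp1, -0.0184 to 0.16 for Syce2, 0.26 to 0.68 for Dmc1, -0.12 to 0.0626 for Msh4 and 0.0288 to 0.71 for Msh5. The cause of these changes was not tested. DESeq2, RLE factors, no filter and the replicate block kept the direction of all 9 members. The replicate numbers are not stated to pair the libraries, and deviations of same-numbered libraries correlated at 0.0976.

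Counts were low for Spo11, with at most 1 count a library, and for the transcripts of Hormad1, Hormad2, Dmc1 and Msh5. With 2 libraries a group, changes of the sizes inside the 95% intervals remain possible.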
